A study of Rattus norvegicus with 18 samples.

Results

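The dorsal hippocampus of rats on control liquid diet is described here as a baseline transcriptome, from the 6 of 18 libraries whose treatment label reads control. Each library came from 1 adult male Sprague Dawley rat bought at 75 to 85 days of age, and the labels name no transgene or deletion. All rats of the study first drank the ethanol-free Lieber-DeCarli control diet for 3 days, and the control rats stayed on it for 16 more days as their only food and fluid. The study's other 12 libraries, from rats fed ethanol and rats withdrawn from ethanol, were not used. The tissue was cut from a brain slice behind bregma and sequenced as bulk poly(A) RNA, so a library holds every cell type that the piece held. The rats are called rats 1 to 6 after their replicate labels, which give no order.

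The hippocampus is built of pyramidal neurons in fields CA1 to CA3 and granule neurons of the dentate gyrus, which signal by glutamate, with a minority of GABA-releasing interneurons. Astrocytes clear transmitter and feed neurons, oligodendrocytes wrap axons in myelin, and microglia are the resident immune cells. The tissue borders the lateral ventricle with its choroid plexus, which makes cerebrospinal fluid, and lies above the thalamus and the medial habenula, a small cholinergic nucleus beside the third ventricle. The levels below describe all of these sources at once.

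Levels are given as TPM (transcript abundance scaled to the same sum in every library), in which the count of a gene is divided by its exon length before scaling, so that different genes can be set side by side. Spread between rats is given as the standard deviation (SD) of log2 CPM (counts scaled to the same library total) with a prior count of 2, after scaling the libraries with TMM factors. The files listed 38445 genes with totals of 31480318 to 39200777 counts per rat, and 15139 genes had a mean of 1 CPM or more. At a mean of 1 CPM the counting error alone was 16.9% of the value. The TMM factors lay between 0.986 and 1.02. On the first principal component, which held 40.3% of the variance, rats 4 and 5 lay at one end and rats 6 and 3 at the other. Pearson's r of log2 CPM across genes, which are not independent replicates, was 0.987 for rats 5 and 6, the lowest pair, and 0.995 for rats 4 and 5, the highest.

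Markers of hippocampal cells were checked first. The glutamate transporter of forebrain excitatory neurons, Slc17a7, stood at 1250 ± 153 TPM (SD, n = 6, as for all values below unless stated). The CA1 genes Wfs1 and Mpped1 stood at 277 ± 37.3 and 104 ± 10.3 TPM, and the CA3 genes Bok and Cpne4 at 109 ± 16.8 and 103 ± 15.2 TPM. The dentate granule markers C1ql2 and Prox1 stood at 163 ± 22.4 and 36.9 ± 2.88 TPM. The summed TPM of 6 markers of the ventral hippocampus was 81.3 ± 7.92, of which no member reached 100 TPM. Some defining markers were listed at or near 0, namely Fibcd1 of CA1 with 0 to 2 counts per rat, Iyd of CA3 with 3 to 7, and Tdo2 and Lct of the dentate gyrus with 0 to 6. Xist had 0 to 5 counts per rat and the Y-linked Ddx3y stood at 87.0 ± 7.05 TPM, which is the pattern of male tissue.

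The 13 mitochondrial protein genes had no rows, and among the genes counted no small set filled these transcriptomes. The 10 genes of highest mean TPM held 5.77% ± 0.10 of all TPM, the 100 highest held 18.95% ± 0.19 and the 1000 highest held 51.3% ± 0.47. Between 898 and 966 genes held 50% of the TPM of a rat, with a mean of 930 ± 24.2. Of the 15139 genes, 2102 (13.9%) had a mean of 100 TPM or more and 76 had 1000 or more, while the median was 22.9 TPM. The genes at the top were largely shared by the rats, since 85 were among the 100 highest in every rat and 22 among the 25 highest in every rat. Their order was not the same in every rat. Ttr stood above Mbp in rat 1, at 7572 against 4341 TPM, and below it in rat 3, at 3622 against 5155. Of the 100 highest, 92 were protein-coding and 0 had an SD above 0.5. Short genes gain on this scale, and 4 of the 100 were under 200 bases long, among them Mir770 with 76 bases.

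**Figure D1:**
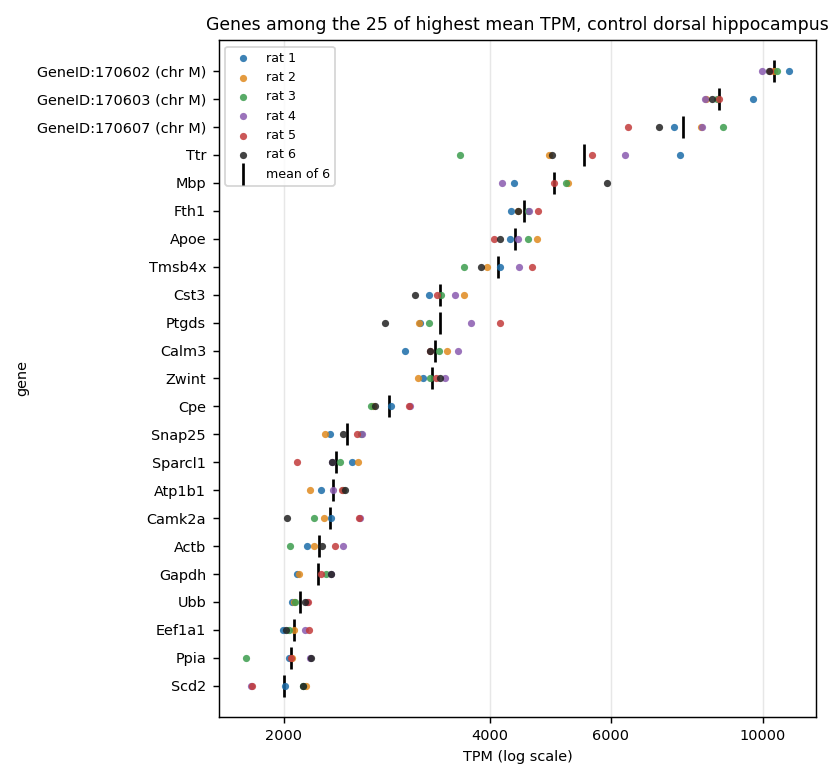
TPM on a log axis of the named genes among the 25 of highest mean TPM, with a point for each control rat and a bar for the mean of 6. Rows named GeneID are mitochondrial rows that have no name in the reference table, Ttr ranges from 3622 TPM in rat 3 to 7572 in rat 1, and most other genes hold within a narrow band.

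The 3 highest rows lay on the mitochondrial chromosome. They had no name in the reference table used and are given by identifier. GeneID:170602 stood at 10370 ± 319 TPM, GeneID:170603 at 8637 ± 537 and GeneID:170607, of 69 bases, at 7647 ± 865. The counts held 24 mitochondrial rows, 2 of them over 100 bases and 22 under 100. The 13 mitochondrial protein genes have no rows of their own among these, so their levels were not measured. Mitochondrial rows took 0.849% to 0.953% of all counts.

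The nuclear genes at the top came from several cell types. Ttr, the thyroid hormone carrier of choroid plexus epithelium, led them at 5488 ± 1357 TPM. The values of Ttr were 7572, 4881, 3622, 6305, 5632 and 4919 TPM in rats 1 to 6, so it was also the most variable of the 25 genes on the log scale. Mbp, a major protein of myelin, followed at 4956 ± 636 TPM. Apoe, the lipid carrier made largely by astrocytes, stood at 4351 ± 240 TPM, Cst3, a protease inhibitor, at 3387 ± 199, and Ptgds, the prostaglandin D synthase of leptomeninges, choroid plexus and oligodendrocytes, at 3380 ± 480. Of genes used by most cells, Fth1, the ferritin heavy chain, stood at 4481 ± 146 TPM and Tmsb4x, which binds actin monomers, at 4111 ± 349.

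Neuronal genes formed the next rank. The calmodulin gene Calm3 stood at 3328 ± 200 TPM, Cpe, which processes peptide hormones, at 2848 ± 172, and Snap25, a SNARE protein of vesicle fusion, at 2473 ± 133. Atp1b1, a subunit of the sodium pump, stood at 2359 ± 110 TPM and Camk2a, the kinase of excitatory synapses, at 2339 ± 218. Sparcl1, an astrocyte matrix protein, lay between these at 2385 ± 169 TPM, and Zwint at 3296 ± 111. Gapdh, Actb, Ubb, Eef1a1, Ppia and Scd2 closed the list between 2004 and 2253 TPM. Several of these genes, such as Fth1, Gapdh, Ppia and Eef1a1, have near-identical copies in the genome. Fragments with more than one mapping place were left out of the counts, so their levels are uncertain.

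Families of genes were summed over lists, 24 of which had members in the files. Together their 452 genes held 20.1% ± 0.44 of TPM. Of the 425 members at 1 CPM or more, 289 (68.0%) reached 100 TPM, against 13.9% of all such genes, and 14 had an SD above 0.5, against 2.13%. The lists were chosen for abundant or regulated families, so these shares describe the choice.

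**Figure D2:**
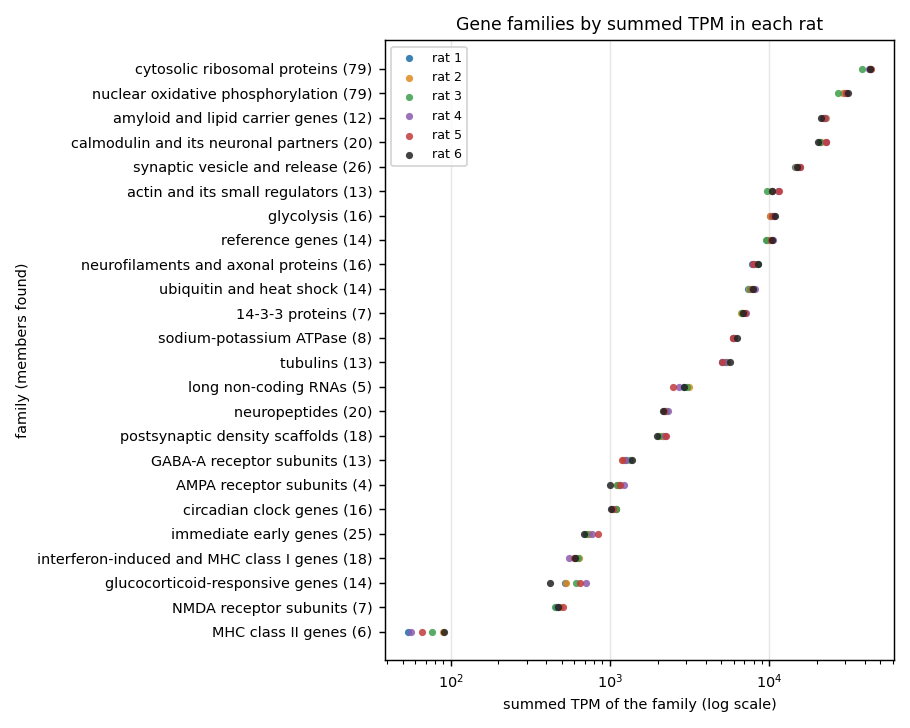
Summed TPM on a log axis of 24 gene families, with a point for each control rat and the number of members found in parentheses. Cytosolic ribosomal proteins lead at a mean of 42368 TPM and MHC class II genes close the plot at 72.3, and rat 3 has the lowest ribosomal and respiratory chain sums.

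Protein synthesis and respiration were the largest families. The cytosolic ribosomal proteins summed to 42368 ± 1928 TPM, 4.24% of the total, and 68 of the 71 members at 1 CPM or more reached 100 TPM. Rpl21 led them at 1642 ± 73.7 TPM, ahead of Rpl9 at 1075 ± 55.3 and Rps29 at 1060 ± 134. The nuclear-encoded subunits of the respiratory chain and ATP synthase summed to 29693 ± 1390 TPM, and 71 of 76 reached 100 TPM, with Atp5f1b at 1578 ± 50.7 and Cox4i1 at 1226 ± 50.5. No member of either family had an SD above 0.5. Rat 3 was the lowest for 59 of the 71 ribosomal genes and 52 of the 76 respiratory genes, against 16.2% of all 15139 genes. Rat 5 was the highest for 40 of the 71 ribosomal genes, against 19.4%. The enzymes of glycolysis summed to 10523 ± 304 TPM, with Gapdh at 2244 ± 116, Aldoa at 1372 ± 43.3 and Aldoc, the aldolase of astrocytes, at 1194 ± 76.4.

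The neuronal families were led by calcium signalling. Calmodulins and their partners summed to 21456 ± 990 TPM. In this list Hpca, hippocalcin of pyramidal neurons, stood at 1964 ± 385 TPM, Nrgn, neurogranin of dendrites, at 1532 ± 162 and the kinase inhibitor Camk2n1 at 1420 ± 47.8. Genes of the synaptic vesicle and its release summed to 15163 ± 395 TPM, with Syp at 1436 ± 61.0 behind Snap25, and genes of the axon and its cytoskeleton to 8185 ± 296, with Uchl1 at 1544 ± 77.5. The sodium pump subunits summed to 6007 ± 129 TPM and the 14-3-3 proteins to 6884 ± 218. The AMPA receptor subunits summed to 1123 ± 73.3 TPM, the GABA-A receptor subunits to 1274 ± 68.7 and the NMDA receptor subunits to 476 ± 19.2, beside 2126 ± 108 TPM for 18 scaffold genes of the postsynaptic density. Of single subunits Gria2 stood at 495 ± 37.7 and Grin1 at 253 ± 11.7 TPM. Among the precursors of neuropeptides and granins that were measured, which leaves out the near-zero rows of Npy and Pcsk1n, Chgb stood highest at 564 ± 28.7 TPM, and Cck, Nts and Sst at 196 ± 21.2, 149 ± 18.8 and 140 ± 18.5. Meg3, an imprinted long non-coding RNA, stood at 1740 ± 160 TPM and Snhg11 at 756 ± 65.6.

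Markers of glia and vessels gave a second view of the same libraries. The 10 oligodendrocyte markers, which all reached 100 TPM, summed to 13175 ± 1659 TPM, from 11225 in rat 4 to 15371 in rat 6, and rat 6 was the highest for 7 of them, against 19.7% of all genes. The 10 astrocyte markers summed to 6530 ± 286 TPM, with S100b at 1720 ± 75.8 and Gfap at 980 ± 63.4. The 10 microglial markers summed to 896 ± 52.6 TPM, with Ctss at 383 ± 22.1 and Cx3cr1 at 33.8 ± 2.37. The interneuron markers summed to 898 ± 60.6 TPM, with the GABA-synthesising enzyme Gad1 at 206 ± 31.6. The 8 endothelial markers found summed to 395 ± 17.6 TPM, and the globins Hbb and Hba-a1 stood at 380 ± 72.0 and 354 ± 66.3.

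Members of 24 pairs of related or partner genes were then compared within each rat, asking which was the more abundant per length. The test was a two-sided exact permutation test that flips the sign of the log2 ratio in each rat, with Benjamini-Hochberg adjustment over the 23 pairs that could be tested. With 6 rats its smallest p is 0.0312, and 21 pairs reached it and had an adjusted p of 0.0342 (exact permutation test). In those pairs the same member was higher in 6 of 6 rats. The kinase subunit Camk2a exceeded Camk2b by 2.53-fold and the vesicular glutamate transporter Slc17a7 exceeded Slc17a6, its subcortical relative, by 19.03-fold, between 8.72-fold and 32.7-fold in single rats. Atp1b1 exceeded Atp1b2 by 5.42-fold and Tmsb4x exceeded Tmsb10 by 10.7-fold. The ratio of Snap25 to Syt1 was among the steadiest at 2.79-fold, between 2.70 and 2.88.

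Other pairs leaned the other way or were close. The astrocyte glutamate transporter Slc1a3 exceeded Slc1a2 by 1.69-fold, the AMPA subunit Gria2 exceeded Gria1 by 1.24-fold, and the motor Kif5a exceeded Kif5c by 1.69-fold. For Camk2a over Camk2b and Kif5a over Kif5c the direction held per length only, and turned in CPM without length. Grin2a and Grin2b, the NMDA subunits that change places in development, were not separated, with 69.3 ± 10.8 and 80.2 ± 10.8 TPM and an adjusted p of 0.281 (exact permutation test), and single ratios of Grin2a to Grin2b ran from 0.586 to 1.18. App exceeded Aplp1 in 5 of 6 rats, with an adjusted p of 0.0653 (exact permutation test). Eno1 against Eno2, the enolase of neurons, is among the 21 pairs that passed, but Eno2 was listed with 9 to 27 counts per rat, so that pair is not read as a ratio. Sst and Npy could not be tested, since Npy was listed with 0 counts in 5 rats and 1 count in rat 5.

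Near-zero rows of this kind were not rare among genes that neurons or all cells use. Hprt1, a common reference gene, had 0 counts in 5 rats and 1 in rat 4. Rps6 had 0 to 2 counts, Rplp2 0 to 1 and Rpl8 0 to 2, beside ribosomal relatives far above 100 TPM. The triosephosphate isomerase Tpi1 had 3 to 13 counts and Pcsk1n, a neuroendocrine precursor, 0 to 3. These rows give no measure of the gene, and why they were low was not tested.

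Most genes differed little between the 6 rats. The median SD of log2 CPM over the 15139 genes was 0.11, with quartiles of 0.07 and 0.19. The median coefficient of variation of CPM was 7.77%, and the median expected from counting error alone was 3.38%. The median biological coefficient of variation, which edgeR estimates by a model with sharing across genes, was 8.55%. The spread fell with abundance, from a median SD of 0.22 for the 4657 genes of 1 to 10 CPM to 0.09 for the 7978 genes of 10 to 100 CPM and 0.07 for the 2434 genes of 100 to 1000 CPM, and was 0.09 for the 70 genes above that.

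Of the genes at 100 TPM or more, Gps1, a COP9 signalosome subunit, had the lowest spread, with 92.4, 91.8, 91.6, 91.4, 92.2 and 92.6 CPM in rats 1 to 6. It was followed by Poldip2, Ube2r2, Phb2, Pcbp2, Arl6ip1, Kcmf1, Ap1b1, Mapk3 and Ypel5, all with an SD of 0.02 or less on the log2 scale. They include a ubiquitin-conjugating enzyme (Ube2r2), mitochondrial prohibitin (Phb2), an RNA-binding protein (Pcbp2), a clathrin adaptor subunit (Ap1b1) and the kinase ERK1 (Mapk3). Of 13 reference genes in use for PCR, B2m had an SD of 0.03 and Rplp0 of 0.05, while Actb, Ppia and Gusb had 0.12, 0.13 and 0.17.

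At the other end, 323 genes (2.13%) had an SD above 0.5 and are called variable. Of them 289 had under 10 CPM and 3 had 100 or more. Those 3, named after their values were seen, were Prkcd, Slc17a6 and Gpd1. The share of variable genes was 1.74% of protein-coding genes, 6.30% of long non-coding RNAs and 10.4% of pseudogenes. Rat 6 was the highest in 140 of the 323 genes, 43.3% against 19.7% of all genes, and rat 5 was the lowest in 116, 35.9% against 16.9%. Rats 1, 3 and 6 were the 3 highest in 92 variable genes, 28.5% against 6.93% of all genes.

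**Figure D3:**
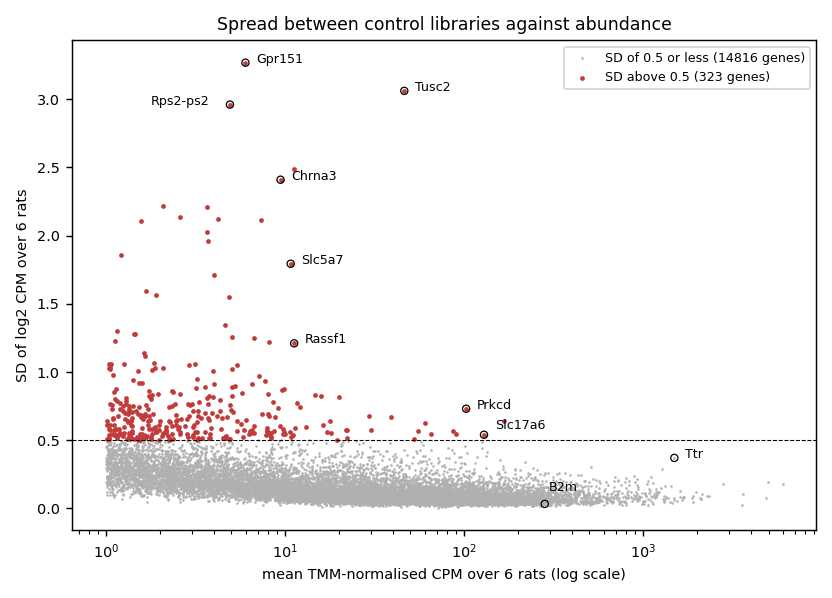
SD of log2 CPM over the 6 control rats against mean CPM on a log axis for 15139 genes, with the dashed line at an SD of 0.5 and 323 genes above it in red. Most variable genes lie below 10 CPM, and Tusc2, Prkcd and Slc17a6 stand out at higher abundance.

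Several of the most variable genes are markers of the medial habenula. Gpr151, an orphan receptor of habenular neurons, had the highest SD of all genes at 3.27, with 9.68, 0.12, 9.19, 0.35, 0.06 and 16.5 CPM in rats 1 to 6. The nicotinic receptor subunit Chrna3 had 13.6, 1.27, 14.1, 1.09, 0.41 and 26.03 CPM. In both genes rats 1, 3 and 6 were high and rats 2, 4 and 5 low, with no overlap. The choline transporter Slc5a7 had 15.5, 2.19, 16.1, 2.57, 1.41 and 26.5 CPM, and Chat, which makes acetylcholine, 6.24, 0.43, 4.61, 0.42, 0.28 and 10.03 CPM. The vesicular acetylcholine transporter Slc18a3 and the subunits Chrnb3 and Chrnb4 were also variable, with an SD of 1.03, 1.96 and 2.14. Pou4f1, a transcription factor of habenular neurons, had 11.9, 3.03, 11.05, 2.12, 0.28 and 15.6 CPM, and it separated rats 1, 3 and 6 likewise. Tac1, the substance P precursor, which other cells also express, had an SD of 0.83, with rat 5 lowest at 4.89 CPM.

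Of 10 habenular genes 9 were variable, against 2.13% of all genes, and leaving out any one rat left 8 or 9 above the limit. Chrna5, which shares its locus with Chrna3 and Chrnb4, was not, with 6.15, 7.32, 7.64, 4.37, 4 and 4.10 CPM. This list was made after the variable genes were seen, and its counts describe the choice. Its summed level ran from 19.8 TPM in rat 5 to 193 in rat 6. In bulk tissue, fewer cells of a type and less RNA per cell cannot be told apart. Onecut1, Espn and Syt15 were likewise highest in rats 1, 3 and 6, with 4.76 CPM of Syt15 in rat 6 and 0.33 in rat 5.

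Promoters of Chrna3 and Chrnb4 are shown because these neighbouring genes had the same pattern over the rats. The sequences are the 250 bases before the start in the RefSeq table of GRCr8, and lie at chr8:64311252-64311501 and chr8:64333110-64333359 on the minus strand. Capitals mark the GC box GGGCGG on either strand, which 32.4% of 27457 promoters in the table hold, and 5 of the 8 habenular genes with an entry. A match is a description and not a binding site.
Chrna3: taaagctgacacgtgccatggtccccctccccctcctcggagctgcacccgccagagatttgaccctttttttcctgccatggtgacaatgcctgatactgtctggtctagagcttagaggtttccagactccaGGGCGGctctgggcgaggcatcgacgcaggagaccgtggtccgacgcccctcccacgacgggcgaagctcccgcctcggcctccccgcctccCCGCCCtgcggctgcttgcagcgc
Chrnb4: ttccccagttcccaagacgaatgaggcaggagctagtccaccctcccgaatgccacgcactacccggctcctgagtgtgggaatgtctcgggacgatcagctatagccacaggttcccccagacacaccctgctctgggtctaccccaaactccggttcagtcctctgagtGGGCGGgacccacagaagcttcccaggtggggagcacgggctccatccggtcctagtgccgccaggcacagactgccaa

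A second group was low in rats 4 and 5. Of 15 transcription factors of the midbrain and caudal diencephalon, 14 were variable, against 2.13% of all genes, and rat 5 was the lowest in 11 of 15, against 16.9% of all genes. Tfap2b had 9.93, 12.6, 11.4, 3.28, 1.55 and 10.2 CPM in rats 1 to 6, and Pax7 7.09, 8.42, 7, 3.08, 1.19 and 5.54 CPM. Rat 2 was thus high here, although it was low in the habenular genes. Gata3, a factor of midbrain GABA neurons, had 0.55 CPM in rat 5 and 2.15 to 3.95 in the others. Pou4f2, a relative of Pou4f1, had 0.17 CPM in rat 5 and 2.42 in rat 2. Without rat 5, 10 of the 15 were above the limit. This list too was made after its values were seen.

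Thalamic markers were highest in rat 6. All 10 members of the list had their highest value there, against 19.7% of all genes, and 7 were variable, against 2.13%. Prkcd, a protein kinase C isoform of thalamic relay neurons, had 67.95, 45.99, 105.9, 83.2, 102 and 209 CPM in rats 1 to 6. Tcf7l2, a transcription factor of thalamus, had 54.4, 31.5, 62.1, 48.1, 48.7 and 119 CPM, and Slc17a6 had 117, 95.1, 151, 93.6, 86.4 and 230 CPM. Calb2, calretinin, had 73.9 CPM in rat 6 and 20.8 to 45.1 in the others. The list summed to 246 TPM in rat 2 and 760 in rat 6. Without rat 6, 0 of the 10 were variable. Pcp4, used as a CA2 marker and also a calmodulin regulator elsewhere in the brain, moved with it at 216 CPM in rat 6 and 86.8 to 114 in the others, and lifted the CA2 sum to 1001 TPM in rat 6 against 474 to 614. Rgs14, another CA2 marker, was lowest in rat 6 at 91.8 CPM and highest in rat 5 at 148. The part of thalamic and habenular tissue in these values was not tested.

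Choroid plexus genes moved together in another order of rats. Of the 11 markers at 1 CPM or more, rat 3 was the lowest in 11 and rat 1 the highest in 9, against 16.2% and 13% of all genes. The list summed to 9102, 5969, 4565, 7762, 6933 and 6069 TPM in rats 1 to 6, of which Ttr was the largest part. Clic6, a chloride channel protein, had 76.5, 52.1, 39.2, 75.5, 68.6 and 52.0 CPM, and Kl, the anti-ageing co-receptor klotho, 65.6, 43.6, 30.8, 58.2, 49.7 and 40.1 CPM. Both had about the order of Ttr. No member passed an SD of 0.5, with a median of 0.38. Otx2, a defining factor of the epithelium, was listed with 0 counts in every rat. Sspo, the secreted protein of the subcommissural organ, had 19.9 CPM in rat 6 and 1.13 to 3.77 in the others. Tph1, the first enzyme of serotonin synthesis in the pineal gland, had 9.11 CPM in rat 3 and 0.35 in rat 4. Their list also held Aanat, Asmt and Crx, all under 1 CPM on average. Aanat was highest in rat 5 at 0.69 CPM, Asmt in rat 6 at 1.11 and Crx in rat 3 at 0.36.

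**Figure D4:**
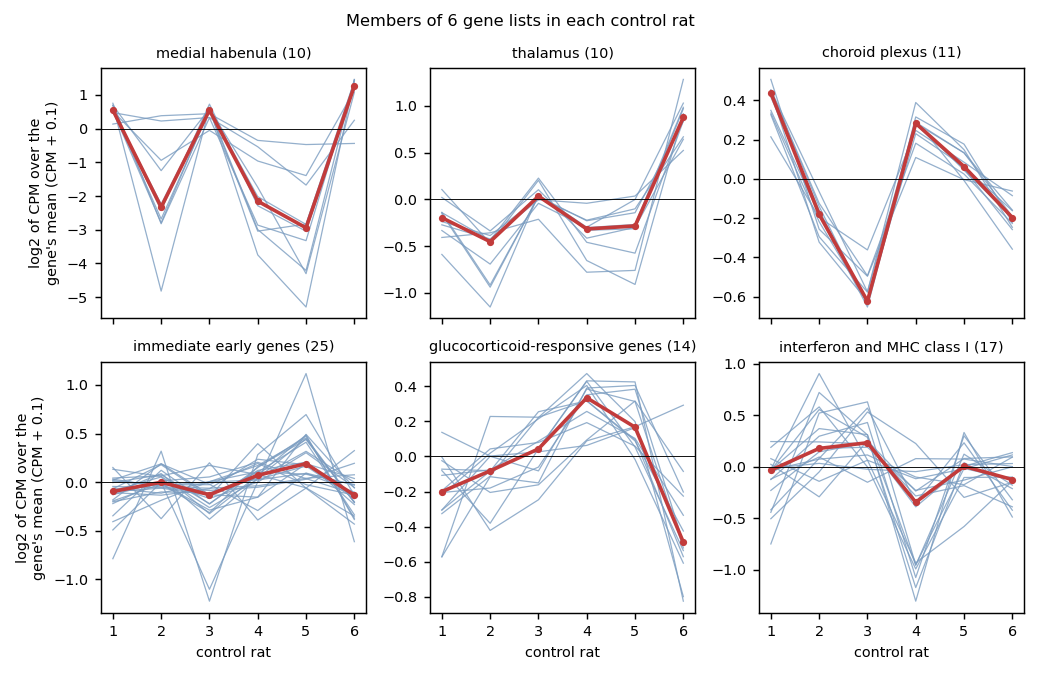
CPM of each gene relative to its mean over the 6 control rats, on a log2 scale after adding 0.1 CPM, for 6 lists, with a blue line for each gene, a red line for the median and the number of genes in parentheses. The lines join values and imply no order of rats, and the panels peak in different rats, with rat 6 for thalamus and rat 1 for choroid plexus.

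Many activity-regulated genes were highest in rat 5. Immediate early genes, which neurons switch on within minutes of firing, had their highest value in rat 5 for 15 of 25 members, against 19.4% of all genes, and 2 of them were variable, against 2.13%. Npas4, a transcription factor induced by calcium entry, had 5.21, 11.3, 3.82, 11.1, 14.7 and 8.25 CPM in rats 1 to 6. Egr2 had 0.79, 1.15, 0.48, 1.16, 2.62 and 0.72 CPM, and was past the limit at an SD of 0.79. The abundant members moved less. Egr1 had 51.3 CPM in rat 5 and 37.0 to 41.6 in the others, and Arc, a protein of active dendrites, 101 CPM in rat 5 and 60.4 to 82.0 in the others. Fos had 10.4 CPM in both rat 2 and rat 5 and 7.98 to 9.31 in the others. No member reached 100 TPM, and the list summed to 748 ± 55.1 TPM. Without rat 5, 1 of the 25 was above the limit. Some markers of excitatory neurons were also highest in rat 5, although the dentate granule sum was highest in rat 1 and the CA2 sum in rat 6. The CA1 markers summed to 547 TPM there and 401 to 476 in the others, and the CA3 markers to 342 and 263 to 325. Slc17a7 stood at 1500 TPM in rat 5 and 1088 to 1365 in the others, and the part of these cells in the immediate early gene values was not tested.

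The promoter of Egr2 is shown because it belongs to the most variable member and holds a serum response element (CC, 6 bases of A or T, then GG), marked in capitals. This motif, searched on both strands, is held by 1.5% of the promoters in the table. A share over the list is void, since 19 of its 25 genes had an entry. The 250 bases lie at chr20:21054442-21054691 on the minus strand of GRCr8.
Egr2: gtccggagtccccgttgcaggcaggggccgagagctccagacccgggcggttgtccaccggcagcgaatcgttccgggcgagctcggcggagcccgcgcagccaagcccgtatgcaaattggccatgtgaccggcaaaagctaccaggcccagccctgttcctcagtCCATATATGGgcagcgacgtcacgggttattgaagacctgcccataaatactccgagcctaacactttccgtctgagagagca

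Genes known to respond to corticosterone were lowest in rat 6 and highest in rats 4 and 5. Rat 6 was the lowest in 11 of 14 members, against 21.4% of all genes, and rat 4 the highest in 9, against 17%. Sgk1, a kinase that regulates ion transport, had 119, 96.5, 130, 170, 169 and 70.9 CPM in rats 1 to 6. Fkbp5, a co-chaperone of the glucocorticoid receptor, had 58.6, 72.5, 68.5, 94.7, 90.1 and 50.5 CPM, and the transcription factor Zbtb16 80.1, 93.0, 117, 140, 115 and 57.7 CPM. No member passed an SD of 0.5 with all 6 rats, while 2 did without rat 2 and 1 without rat 1 or rat 3. The list sum ran from 418 TPM in rat 6 to 713 in rat 4. Gpd1, glycerol-3-phosphate dehydrogenase, which was not in the list, had 115, 173, 191, 226, 226 and 72.9 CPM, the same order at both ends. Core clock genes had a median SD of 0.10 over 16 members, near the 0.11 of all genes, and rat 6 was the lowest in 8 of them, against 21.4%. In this list Dbp stood at 164 ± 7.98 TPM and Per1 at 27.3 ± 4. The hour of collection was not given in the sources used here.

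Interferon-induced genes were lowest in rat 4. This held for 10 of 17 genes of the list, against 17.7% of all genes, and 6 were variable, against 2.13%, namely Mx1, Mx2, Isg15, Irf7, Oas1a and Rsad2. Mx2, an antiviral GTPase, had 8.89, 20.01, 15.02, 4.85, 15.3 and 8.61 CPM in rats 1 to 6, and Irf7, the factor that amplifies the response, 4.93, 6.63, 7.28, 2.51, 6.65 and 4.29 CPM. All 6 were of low abundance, at most 7.32 TPM on average. B2m, the light chain of MHC class I, was the abundant member at 430 ± 12.3 TPM and did not vary with them. Without rat 4, 3 of the 17 were above the limit. Ifit1 lay under 1 CPM on average, with 96 counts in rat 1 and 0 or 1 in each other rat. Of MHC class II genes, RT1-Bb had 17.2 CPM in rat 3 and 1.06 to 3.14 in the others, whereas its partner RT1-Ba had 2.90 in rat 3 and 2.35 to 4.61 in the others.

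Promoters of Irf7, Rsad2 and Oas1a are shown because these variable genes each hold GAAA, any 2 bases and GAAA again on either strand, the core of the interferon-stimulated response element, marked in capitals. It is held by 3.29% of the promoters in the table, and a share over the list is void, since 12 of its 18 genes had an entry. They lie at chr1:205800024-205800273 on the minus strand, chr6:48788121-48788370 on the minus strand and chr12:41330216-41330465 on the plus strand of GRCr8.
Irf7: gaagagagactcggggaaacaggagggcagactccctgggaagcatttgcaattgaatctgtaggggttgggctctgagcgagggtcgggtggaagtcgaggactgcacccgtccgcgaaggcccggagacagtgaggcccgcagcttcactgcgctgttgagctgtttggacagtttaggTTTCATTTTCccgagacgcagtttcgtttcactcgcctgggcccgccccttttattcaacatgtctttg
Rsad2: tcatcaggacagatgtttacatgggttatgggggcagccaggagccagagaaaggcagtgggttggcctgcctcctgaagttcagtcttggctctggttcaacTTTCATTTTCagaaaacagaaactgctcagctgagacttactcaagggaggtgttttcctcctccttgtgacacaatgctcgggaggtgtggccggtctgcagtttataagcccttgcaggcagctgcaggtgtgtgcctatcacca
Oas1a: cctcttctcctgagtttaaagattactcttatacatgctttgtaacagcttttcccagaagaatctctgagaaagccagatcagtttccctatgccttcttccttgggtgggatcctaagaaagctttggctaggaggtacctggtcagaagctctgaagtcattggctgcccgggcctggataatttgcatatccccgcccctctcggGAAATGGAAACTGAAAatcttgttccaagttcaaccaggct

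Some genes were present in some rats and all but absent in others. In 21 of the 15139 genes the rats split across a gap of more than 4-fold, counted after adding 0.1 CPM. Not all of these were near 0 below the gap, as in Ephx2, with 2.07 CPM at its lowest. Tusc2, a tumour suppressor candidate, had 51.7, 51.8, 57.1, 58.2 and 58.1 CPM in rats 1 to 5 and 0.25 CPM, from 9 counts, in rat 6. This is 0.450% of the mean of the other rats, with an exact 95% Poisson interval of 0.206% to 0.855% for counting error. Rassf1, which ends just before Tusc2 on chromosome 8, had 11.98 to 13.7 CPM in rats 1 to 5 and 1.63 in rat 6. In the files' build, Rnor_6.0, Rassf1 lies at chr8:116307149-116318289 and Tusc2 at chr8:116318963-116322181, both on the plus strand.

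The genes on either side were not lost. Zmynd10 before them had 18.5 CPM in rat 6 and 18.1 to 20.8 in the others, and Hyal2 after them 14.3 in rat 6 and 10.7 to 12.98 in the others. Hyal1 was somewhat lower in rat 6, at 21.1 CPM against 28.9 to 30.5. Without rat 6, the SD of Tusc2 was 0.09.

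**Figure D5:**
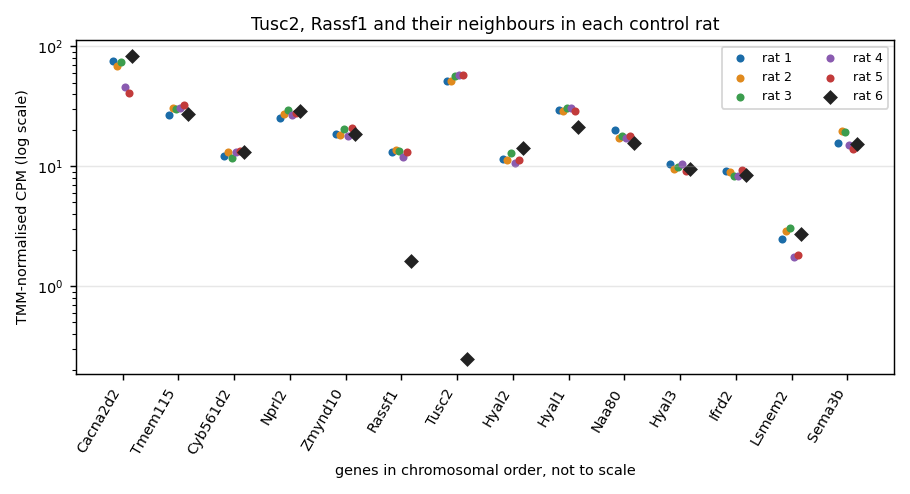
CPM on a log axis of 14 neighbouring genes in chromosomal order, with a circle for each of rats 1 to 5 and a black diamond for rat 6. Rat 6 lies far below the others at Rassf1, with 1.63 CPM, and Tusc2, with 0.25, and a little outside their range at Cacna2d2, Hyal2, Hyal1 and Naa80.

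Several other splits were in pseudogenes or copies of other genes, whose reads can be shared with near-identical relatives and whose levels are therefore uncertain. Rps2-ps2 had 6.94, 0.09, 0.08, 7.68, 8.31 and 6.34 CPM in rats 1 to 6, and Rpl30l2, a copy of a ribosomal gene, 0.70, 22, 20.7, 1.19, 0.83 and 21.9 CPM. Grlf1-ps1 was high in rats 2 and 3, at 9.05 and 9.57 CPM, and low in rats 4 and 6, at 0.35 and 0.28. Rps2-ps41 had 0 counts in rat 1 only, and Snurf-ps2 had 5.52 CPM in rat 5 and at most 0.88 in the others. Prmt1l1 had 4.63, 0.43, 10.97, 0.48, 4.80 and 0.47 CPM. Each of these split the rats differently, and none followed the habenular order. Ephx2, soluble epoxide hydrolase, had 10.2 CPM in rat 6 and 2.07 to 2.41 in the others.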

How the data were processed

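Poly(A) RNA of 6 control rats was sequenced as stranded paired-end reads, with RNA integrity numbers above 8. Alignment by the authors used STAR 2.5.2a and Rnor_6.0, and they deposited raw counts of fragments per gene from featureCounts 1.5.0, with the summed exon length of each gene. Fragments were counted by strand, and those mapping to several places were left out. Columns were read as deposited. Of 38445 gene identifiers, 29322 were named from the RefSeq table of GRCr8, which served for names and promoters only, and the unnamed rows held 1.42% to 1.55% of counts.

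TPM was computed from counts and lengths. CPM was scaled by TMM (edgeR 4.0.16, R 4.3.3), and genes with a mean of 1 CPM or more were kept, with a prior count of 2 on the log2 scale. A gene was called variable at an SD above 0.5. The biological coefficient of variation came from edgeR with an intercept only. Pairs were tested by exact permutation (Python 3.11.15, numpy 2.4.6, scipy 1.17.1). No group was compared. No library repeated another, since chi-square per degree of freedom of any 2 rats was 5.74 or more. Named genes were the 25 highest in TPM, the 25 most variable, the 10 steadiest at 100 TPM or more, and members of the lists and pairs, and any other gene was named after its values were seen. The members and lists were chosen with earlier results of these data known, and the habenular, midbrain and subcommissural lists after the spread was seen. Alternatives were effective length, no mitochondrial rows, other scaling, filters, thresholds and prior counts, and leaving out each rat, with DESeq2 1.42.0 size factors among them. The spread statistic was tested on simulated data. The depth of 31480318 to 39200777 counts per rat sets a counting error of 16.9% at 1 CPM. Intervals cover counting error only. Rows with no name are given by identifier, and the 13 mitochondrial protein genes had no rows in the counts. Some genes that the rule covers are not reported here.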

Additional observations from a re-analysis of the deposited data

Results flagged for a closer look

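Of 109 values examined, 9 had 1 rat far from the other 5 by Dixon's test at the 95% level, which compares the gap to the nearest rat with the whole range. Chance flags about 5% of groups of 6 taken at random, which is no yardstick here, since the values include genes picked for their spread. The values give that gap as a fraction of the range. Rat 1 stood high in GeneID:170603 (0.739) and rat 3 low in Ppia (0.641), both in TPM. In CPM, rat 6 stood low in Tusc2 (0.888) and high in Sspo (0.859), rat 5 high in Snurf-ps2 (0.856) and rat 3 high in RT1-Bb (0.871). Among summed TPM, rat 3 stood low in the cytosolic ribosomal proteins (0.690), and rat 6 stood high in the sodium pump subunits (0.654) and the CA2 markers (0.735), the last through Pcp4. What set these rats apart was not tested.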

How the results depend on the processing

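Shares of TPM moved with the length used and with the mitochondrial rows. With effective length, the 10, 100 and 1000 highest genes held 6.27%, 21.7% and 55.0% of TPM and the family lists 23.8%, and without mitochondrial rows they held 4.24%, 16.9%, 49.9% and 20.8%. The number of variable genes moved with the filter and the threshold. It was 1060 with CPM above 0.5 in at least 1 rat, 87 at a mean of 5 CPM or more, 4791 with no filter, 1519 at an SD above 0.3 and 122 at a biological coefficient of variation above 0.35. Other scaling or a prior count of 0.5 gave 323 to 347. Leaving out 1 rat at a time gave 279, without rat 6, to 373, without rat 1, and leaving out rats 5 and 6 together, chosen after seeing the data, gave 275. Leaving out 1 rat moved the shares of the 10, 100 and 1000 highest genes within 5.74% to 5.79%, 18.9% to 18.99% and 51.2% to 51.5%, and left the count at 100 TPM or more at 2092 to 2104. In CPM without length, the log2 ratio of Camk2a to Camk2b turned to -0.19 and that of Kif5c to Kif5a to 0.24. Of 23 pairs, 20 passed with effective length and 23 without length, against 21. With 5 rats the smallest exact p is 0.0625, so no pair can pass and no count was made. No paired analysis was possible because a single group was used. Depth limits the spread of genes near 1 CPM, where counting error is 16.9% of the value.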
